A study of Mus musculus with 12 samples.

Results

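The mitochondrial genome of the mouse retina was followed in JR5558 and C57BL/6J mice through all genes that the deposited table places on chromosome MT, which are the genes whose symbols start with mt-. These were 37 of the 56748 genes in the table: 13 protein-coding genes, 2 ribosomal RNA genes and 22 transfer RNA genes. The rule that chose them used no measured value, although earlier results of these data were known. Messenger RNA from 12 whole retinas was sequenced as read pairs, with each library made from a retina of another mouse. The 4 groups of 3 mice were JR5558 at 8 weeks, JR5558 at 4 weeks, C57BL/6J at 8 weeks and C57BL/6J at 4 weeks. JR5558 is an inbred line in which new vessels grow under the retina without treatment. It is known to carry the rd8 allele of Crb1, a gene of photoreceptor adhesion, together with a Jak3 allele. C57BL/6J is the wild-type control of the study and is known to lack a working copy of Nnt, a mitochondrial transhydrogenase. The RNA was captured on poly-T beads, fragmented and copied with random primers. The labels allow either a directional or a non-directional library.

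Mitochondria keep a small circular genome whose proteins are all subunits of the respiratory chain or of the ATP synthase. The nucleus encodes the remaining subunits and the whole machinery of replication, transcription and RNA processing. Both strands are transcribed as long precursors from which enzymes cut out the transfer RNAs, and the cuts at transfer RNAs free most messenger and ribosomal RNAs. Mammalian mitochondrial messenger RNAs then receive short poly-A tails, and the ribosomal RNAs receive even shorter ones. Photoreceptors pack many mitochondria into their inner segments, since phototransduction and the dark current use much ATP. A count on a transfer RNA gene in these libraries is a fragment assigned to its interval, and a finished transfer RNA cannot be told apart from a longer transcript that covers it.

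The libraries held 18029611 to 23739886 counts. The tissue label was checked on 8 rod genes, all with counts. Their summed level was 59860 to 61770 counts per 1e6 counts (CPM) in JR5558 at 8 weeks and 56930 to 63910 CPM in JR5558 at 4 weeks, against 67160 to 70080 CPM in C57BL/6J at 8 weeks and 58510 to 63280 CPM in C57BL/6J at 4 weeks. The summed level of 6 Mueller glia markers, all with counts, was 4480 to 4789 CPM in JR5558 at 8 weeks and 3556 to 4206 CPM in JR5558 at 4 weeks, against 3785 to 4136 CPM in C57BL/6J at 8 weeks and 3126 to 4034 CPM in C57BL/6J at 4 weeks. At 8 weeks the rod sum was thus lower and the Mueller glia sum higher in every JR5558 library. Between the ages, the rod sum was higher at 8 weeks in every C57BL/6J library and the Mueller glia sum in every JR5558 library. The 6 Mueller glia markers did not move together with age in JR5558. After scaling for library size, Glul and Apoe were higher in every JR5558 library of 8 weeks and Slc1a3 overlapped. Aqp4, Kcnj10 and Sox9 were lower in every JR5558 library of 8 weeks. The summed level of 10 pigment epithelium markers was 1096 to 1288 CPM in JR5558 at 8 weeks and 1016 to 1211 CPM in JR5558 at 4 weeks. It was 675.8 to 746.7 CPM in C57BL/6J at 8 weeks and 530.2 to 652.1 CPM in C57BL/6J at 4 weeks, so this list was higher in every JR5558 library. All 10 of these markers had counts. Rlbp1 alone stood at 424.6 to 847.4 CPM and made up most of each sum. The sum thus mainly followed this 1 gene, and which cells of the whole retina its RNA came from was not tested. Best1 overlapped between the strains at both ages. At 8 weeks it had 11, 12 and 33 counts in JR5558 and 12, 9 and 18 in C57BL/6J. At 4 weeks it had 17, 14 and 11 counts in JR5558 and 12, 12 and 26 in C57BL/6J. The 3 JR5558 libraries of 4 weeks held 0 to 5 counts of Xist and 1323 to 1846 counts of the Y-linked gene Ddx3y, whereas the other 9 held 7772 to 22988 and 0 counts. Sex therefore cannot be told apart from strain at 4 weeks, from age in JR5558 or from the difference of the strain effect between the ages. The part of the rod, Mueller glia and pigment epithelium levels in the results below was not tested. In whole retina, fewer cells of a type and less RNA per cell cannot be told apart.

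The sequences below belong to the genes that passed a threshold and to the genes whose counts are uncertain because their bases stand elsewhere too. All sequences are from the GENCODE M21 transcripts on GRCm38, in which all 37 genes have the start, end and strand given in the deposited table. The 3 transfer RNA genes between mt-Nd4 and mt-Nd5 lie side by side (histidine, MT:11546-11612; serine, MT:11613-11671; leucine, MT:11671-11741, all on the forward strand). They are shown because the last of them gave the largest changes. Capitals mark the anticodon of mt-Tl2, the transfer RNA that reads CUN leucine codons.
mt-Th: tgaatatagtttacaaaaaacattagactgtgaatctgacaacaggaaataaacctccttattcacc
mt-Ts2: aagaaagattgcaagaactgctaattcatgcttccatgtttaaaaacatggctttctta
mt-Tl2: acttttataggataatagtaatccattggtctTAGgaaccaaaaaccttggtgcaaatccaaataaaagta
The genes mt-Ts2 and mt-Tl2 share 1 base.

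The ribosomal RNA genes are mt-Rnr1 for the 12S RNA of the small subunit (MT:70-1024, 955 bases, forward strand) and mt-Rnr2 for the 16S RNA of the large subunit (MT:1094-2675, 1582 bases, forward strand). In each, 60 bases around the longest internal run of A are shown because the libraries were made with poly-T capture. Capitals mark the run, which spans 5 bases in mt-Rnr1 and 7 bases in mt-Rnr2.
mt-Rnr1, bases 610 to 669: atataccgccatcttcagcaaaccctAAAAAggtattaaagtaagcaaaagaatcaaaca
mt-Rnr2, bases 369 to 428: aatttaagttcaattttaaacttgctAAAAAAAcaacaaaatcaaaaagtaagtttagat
Adenine made up 37.8% of mt-Rnr1 and 38.2% of mt-Rnr2. Neither trait was particular to them: mt-Nd2 had a run of 8 bases and 36.9% adenine, and mt-Atp8 had 40.7% adenine. The part of these runs in the capture was not tested.

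A further set concerns nuclear copies of mitochondrial DNA. A stretch of 4663 bases (MT:6381-11043) has a near-identical, collinear copy on the reverse strand of chromosome 1 (chr1:24611535-24616197, GRCm38 positions of GENCODE M21). It covers 11 mitochondrial genes wholly: 6 protein-coding genes (mt-Co2, mt-Atp8, mt-Atp6, mt-Co3, mt-Nd3 and mt-Nd4l) and 5 transfer RNA genes. It covers mt-Co1 and mt-Nd4 in part. The annotated copies Gm28661, Gm10925, Gm28437 and Gm10222 matched mt-Co2, mt-Atp6, mt-Co3 and mt-Nd4l at 100% of their aligned bases. Gm28438 differed from mt-Nd3 at 1 base, T3C, counted from the first base of mt-Nd3. Gm28439 matched the first 876 of the 1378 bases of mt-Nd4, and Gm29216 matched 98.78% of the last 492 bases of mt-Co1. Less similar copies on chromosome 2 matched mt-Co1 at 97.61% (Gm13340) and mt-Co2 at 97.62% (Gm13341). The first 60 bases of 2 genes and their copies show how little there is to tell them apart. Capitals mark bases that differ between a gene and its copy.
mt-Nd3: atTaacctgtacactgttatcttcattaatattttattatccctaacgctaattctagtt
Gm28438: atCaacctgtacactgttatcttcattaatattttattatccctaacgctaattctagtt
mt-Co2: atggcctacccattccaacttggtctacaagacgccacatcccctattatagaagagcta
Gm28661: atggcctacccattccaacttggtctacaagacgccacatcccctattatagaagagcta
Gm13341: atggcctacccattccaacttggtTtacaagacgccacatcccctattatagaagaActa
How reads that match several places were counted is not given in the sources used here. The values of the 6 enclosed protein-coding genes are therefore uncertain, as are those of the enclosed transfer RNA genes mt-Ts1, mt-Td, mt-Tk, mt-Tg and mt-Tr. The same holds for the copied parts of mt-Nd4 and mt-Co1. Of the windows of 150 bases in mt-Nd4, 59.15% stand unchanged in Gm28439, and of those in mt-Co1, 23.64% stand unchanged in Gm29216.

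The mitochondrial genes took 2.90% to 4.45% of all counts. In JR5558 at 8 weeks the share was 3.68%, 3.67% and 4.33%, with a mean of 3.89% ± 0.377 (SD, n = 3), and in JR5558 at 4 weeks it was 3.55%, 3.63% and 3.19%, with a mean of 3.46% ± 0.234. In C57BL/6J it was 3.75%, 3.99% and 3.74% at 8 weeks, with a mean of 3.83% ± 0.141, and 2.90%, 2.99% and 4.45% at 4 weeks, with a mean of 3.45% ± 0.871. Replicate 3 of C57BL/6J at 4 weeks stood apart from its group and was the highest of all 12 libraries. Without it that group had a mean of 2.94%. The JR5558 libraries of 8 weeks all lay above those of 4 weeks, whereas the strains overlapped at both ages and the C57BL/6J ages overlapped. The share is a sum over the chosen genes and was given no test.

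**Figure D1:**
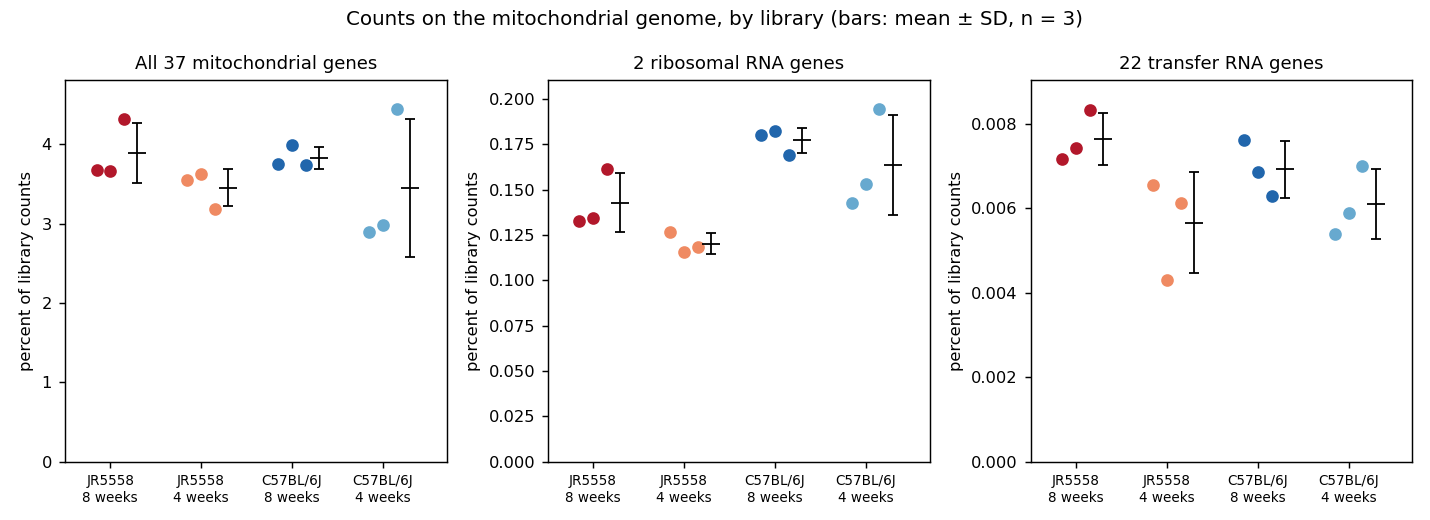
Percent of library counts (vertical axes) on all mitochondrial genes, on the ribosomal RNA genes and on the transfer RNA genes, with 1 point per library and bars for the mean ± SD (n = 3) of each group. The third C57BL/6J library of 4 weeks lies at 4.45% for all genes, and all JR5558 libraries lie below all C57BL/6J libraries of their age for ribosomal RNA.

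Ribosomal RNA genes took 0.143% ± 0.0162 of the counts in JR5558 at 8 weeks and 0.120% ± 0.00583 in JR5558 at 4 weeks, against 0.177% ± 0.00702 in C57BL/6J at 8 weeks and 0.164% ± 0.0275 in C57BL/6J at 4 weeks (SD, n = 3 each). The transfer RNA genes together took 0.00430% to 0.00833% of the counts. The protein-coding genes took 3.50% ± 0.457 of the counts over the 12 libraries (SD), out of 3.66% ± 0.473 for all 37 genes. A ribosomal RNA level here is the level of what the poly-T beads retained.

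Levels were compared between genes as CPM per kilobase of gene length, as the mean over the 12 libraries ± SD. In complex IV, cytochrome c oxidase, mt-Co1 had the highest level of all 37 genes, 8095 ± 1078, while mt-Co2 stood at 110.2 ± 20.0 and mt-Co3 at 51.5 ± 13.2. The only complex III gene, mt-Cytb for cytochrome b, followed mt-Co1 at 6762 ± 886.5 and lay below it in all 12 libraries. In complex I, NADH dehydrogenase, mt-Nd1 stood at 4666 ± 651, mt-Nd2 at 2562 ± 508, mt-Nd6 at 2438 ± 528, mt-Nd5 at 2035 ± 329.7 and mt-Nd4 at 1784 ± 272. Of these neighbours only mt-Nd2 and mt-Nd6 changed places between libraries, with mt-Nd2 above mt-Nd6 in 10 of 12.

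Below them came mt-Rnr2 at 732 ± 131 and mt-Rnr1 at 370.3 ± 81.9 CPM per kilobase. The lowest protein-coding levels were all of genes enclosed in the stretch copied on chromosome 1: mt-Co2, then mt-Nd3 at 97.8 ± 21.3, mt-Co3, mt-Atp6 at 50.4 ± 21.4, mt-Nd4l at 28.8 ± 12.1 and mt-Atp8 at 1.74 ± 1.23. Each of these 6 lay below 370.3, the lowest mean level among the 7 protein-coding and ribosomal RNA genes outside the stretch. The order of mt-Co2 and mt-Nd3, of mt-Co3 and mt-Atp6, and of mt-Atp6 and mt-Nd4l changed between libraries. In the cell all these messengers are known to come from the same precursor as mt-Co1 and mt-Cytb.

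The subunits a and 8 of the ATP synthase come from mt-Atp6 (MT:7927-8607) and mt-Atp8 (MT:7766-7969), which overlap by 43 bases. Those bases are shown, without capitals, because a read confined to them matches both genes.
mt-Atp8 and mt-Atp6, shared bases: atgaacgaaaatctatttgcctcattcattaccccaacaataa
With 204 bases, mt-Atp8 is also the shortest protein-coding gene, and it had 0 to 16 counts per library.

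**Figure D2:**
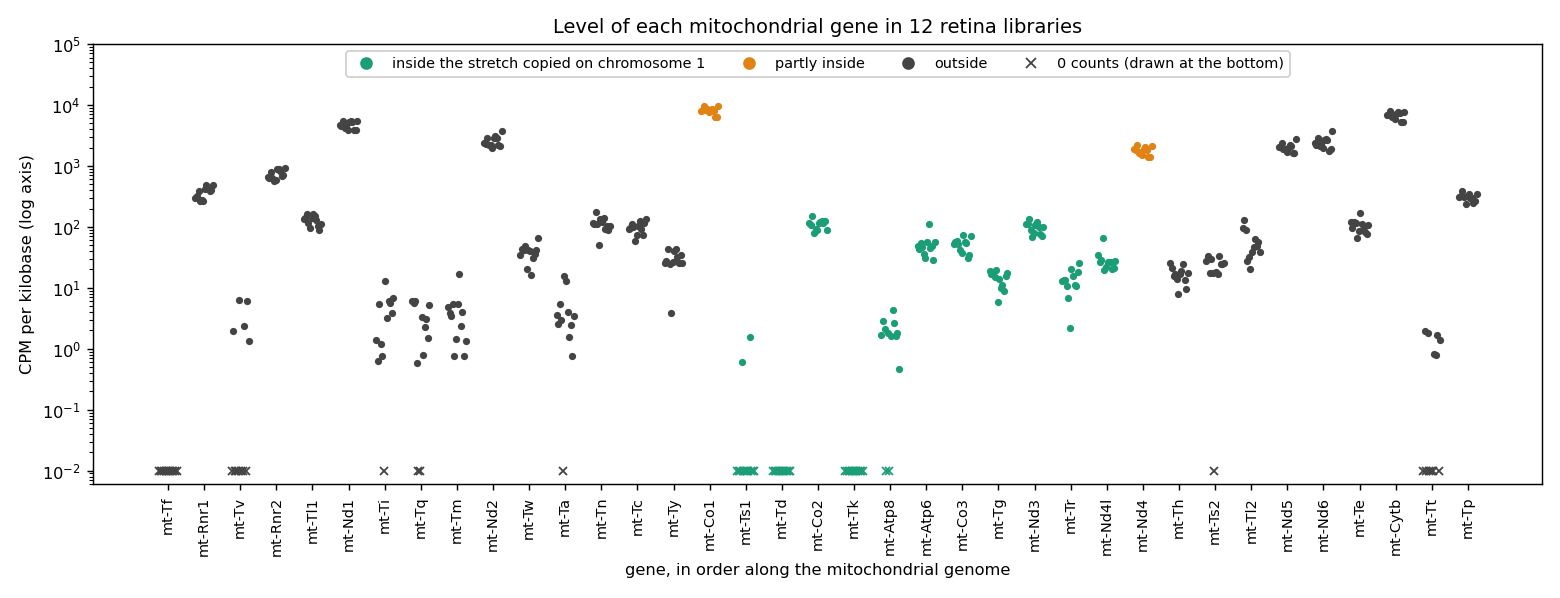
Level of each of the 37 genes in CPM per kilobase on a log axis, with 1 point per library and genes in their order along the mitochondrial genome. Green genes lie inside the stretch copied on chromosome 1, and their protein-coding members (mean 1.74 to 110.2) lie below the grey and orange protein-coding genes. Crosses at the bottom stand for libraries with 0 counts.

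The nuclear copies themselves had counts in every library. Gm28661, the copy of mt-Co2, had 785 to 2149 counts per library, while mt-Co2 itself had 1207 to 2142. Gm10925 had 398 to 1073 counts, set against 363 to 1373 for mt-Atp6, and Gm28437 had 283 to 671, set against 429 to 1213 for mt-Co3. Gm10222 had 45 to 140, set against 108 to 467 for mt-Nd4l. Copy and mitochondrial gene thus had counts of the same order in these 4 pairs. They lay further apart for Gm28438 with 35 to 106 counts and mt-Nd3 with 451 to 996, and for Gm28439 with 124 to 275 counts and mt-Nd4 with 34183 to 63429. The copies of mt-Co1 had 153 to 514 counts (Gm29216) and 30 to 153 (Gm13340), set against 173697 to 317802 for mt-Co1. Gm13341, the other copy of mt-Co2, had 2 to 13 counts.

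The 9 genes on the reverse strand are mt-Nd6 and 8 transfer RNA genes. With the strand setting unknown, their reads cannot be told apart from reads of the forward transcript across the same bases. mt-Nd6, a complex I subunit, ran from 918 CPM to 1920 CPM, lowest in replicate 1 and highest in replicate 3 of C57BL/6J at 4 weeks. Its count was 0.327 ± 0.0148 of that of mt-Nd5, the gene it faces, in JR5558 at 8 weeks and 0.329 ± 0.0134 in JR5558 at 4 weeks. The same ratio was 0.362 ± 0.0121 in C57BL/6J at 8 weeks and 0.337 ± 0.0360 in C57BL/6J at 4 weeks (SD, n = 3 each).

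Of the 22 transfer RNA genes, 12 passed the filter on low counts and 10 did not. By total count the highest was mt-Tp (proline, reverse strand) with 293 to 541 counts per library, followed by mt-Tl1 (leucine) with 124 to 261, mt-Tn (asparagine) with 68 to 259, mt-Te (glutamate) with 87 to 251 and mt-Tc (cysteine) with 75 to 189. Then came mt-Tl2 with 29 to 205 counts, mt-Tw (tryptophan) with 20 to 93 and mt-Ty (tyrosine) with 5 to 62. The last 4 tested were mt-Ts2 with 0 to 45, mt-Th with 11 to 35, mt-Tg (glycine) with 8 to 26 and mt-Tr (arginine) with 3 to 37 counts. Among those not tested, mt-Tf, mt-Td and mt-Tk had 0 counts in all libraries, which allows up to 0.0123 CPM (3 counts over all libraries, counting error only). For mt-Td and mt-Tk, which lie inside the stretch copied on chromosome 1, this limit does not cover reads that also match the copy. The other 7 (mt-Tv, mt-Ti, mt-Tq, mt-Tm, mt-Ta, mt-Ts1 and mt-Tt) reached at most 22 counts in a library.

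Between the strains at 4 weeks, both ribosomal RNAs were called lower in JR5558 and no mitochondrial gene was called higher. Of the 27 tested, 7 had a log2 fold change above 0. Past an adjusted p of 0.05 in edgeR's quasi-likelihood test, with Benjamini-Hochberg adjustment over 18334 genes, 2 of the 27 tested mitochondrial genes were lower in JR5558, against 2.90% of all tested genes called lower and 6.16% called in either direction. The level of mt-Rnr1 was 255.7, 259.4 and 258.3 CPM in JR5558, against 363.9, 384.8 and 471.7 CPM in C57BL/6J. Every JR5558 library lay below every C57BL/6J library, and the JR5558 values lay close together. The log2 fold change was -0.66 ± 0.10 (SE; adjusted p = 0.000316), and mt-Rnr1 kept its call without any 1 of the 12 libraries.

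mt-Rnr2 stood at 984.6, 890.3 and 923.4 CPM in JR5558 at 4 weeks, against 1070.0, 1122 and 1488 CPM in C57BL/6J. The groups did not overlap, although the lowest C57BL/6J library was near the highest of JR5558. The log2 fold change was -0.40 ± 0.10 (edgeR, adjusted p = 0.0251). Without replicate 3 of C57BL/6J it was -0.23 with an adjusted p of 0.0792, and the call was also lost without JR5558 replicate 2 (adjusted p = 0.0956), without JR5558 replicate 3 (0.0787) and in a fit of the 2 groups alone (0.108).

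mt-Tl2 had 47, 43 and 29 counts in JR5558 at 4 weeks, against 61, 75 and 58 in C57BL/6J. Its JR5558 values were all lower, with a log2 fold change of -0.85 ± 0.26 that did not pass the threshold (edgeR, adjusted p = 0.0690). It passed in DESeq2 (adjusted p = 0.0398) and in edgeR with no filter on low counts (0.0442), while the adjusted p over the alternatives ran up to 0.220. The other large changes were on few counts. mt-Tr had 18, 9 and 3 counts in JR5558, against 13, 23 and 37 in C57BL/6J (log2 fold change -1.41 ± 0.52, adjusted p = 0.131 in edgeR). mt-Atp8 had 0, 7 and 0 counts in JR5558, against 6, 7 and 2 in C57BL/6J (-1.17 ± 1.01, adjusted p = 0.597). For both genes the groups overlapped, and for mt-Atp8 the standard error was nearly as large as the change.

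Among the 13 protein-coding genes none passed the threshold at 4 weeks, and 2 had an unadjusted p under 0.05, against 19.1% of all tested genes. Their median log2 fold change was -0.09, against 0.00 over all tested genes. This count depended on 1 library. Without replicate 3 of C57BL/6J, mt-Co1 (0.39 ± 0.07, adjusted p = 0.00134) and mt-Cytb (0.27 ± 0.07, adjusted p = 0.0207) were called higher in JR5558, and mt-Co2 (-0.49 ± 0.11, adjusted p = 0.0122) and mt-Tl2 (-0.98 ± 0.28, adjusted p = 0.0457) lower. In that fit 2 mitochondrial genes were called higher and 3 lower, against 6.16% of all genes. The levels of mt-Co1 were 12910, 13500 and 11750 CPM in JR5558, against 9667, 9695 and 14930 CPM in C57BL/6J, so that replicate 3 was the one that overlapped.

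At 8 weeks, mt-Rnr1 was again lower in JR5558 and mt-Tl2 was higher. These were the 2 of 27 mitochondrial genes past the threshold, against 5.18% of all tested genes. mt-Rnr1 stood at 285.5, 309.6 and 376.6 CPM in JR5558, against 401.3, 459.3 and 417.5 CPM in C57BL/6J, without overlap. The log2 fold change was -0.40 ± 0.10 (edgeR, adjusted p = 0.0259). This call was lost without JR5558 replicate 1 (adjusted p = 0.184) or 2 (0.156) and without C57BL/6J replicate 2 (0.142) or 3 (0.0802).

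mt-Rnr2 was at 1023, 1019 and 1235 CPM in JR5558 at 8 weeks, against 1424, 1404 and 1313 CPM in C57BL/6J. All JR5558 values were lower, with a log2 fold change of -0.34 ± 0.10 that did not pass in edgeR (adjusted p = 0.0671). It passed without replicate 3 of C57BL/6J at 4 weeks, a library outside this comparison that enters the shared estimate of spread (-0.34 ± 0.07, adjusted p = 0.00339).

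mt-Tl2 had 139, 205 and 133 counts in JR5558 at 8 weeks, against 58, 60 and 84 in C57BL/6J. The lowest JR5558 library lay well above the highest C57BL/6J library, and in CPM the values were 6.75, 9.08 and 6.33, against 2.71, 3.32 and 4.49. The log2 fold change was 1.08 ± 0.24 (edgeR, adjusted p = 0.0105). Leaving out JR5558 replicate 2 gave an adjusted p of 0.0894, leaving out C57BL/6J replicate 1 gave 0.0715 and leaving out C57BL/6J replicate 2 gave 0.0537.

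The genes around mt-Tl2 did not pass the threshold at 8 weeks. mt-Th, which lies 2 genes upstream, had 35, 32 and 22 counts in JR5558, against 24, 23 and 31 in C57BL/6J (log2 fold change 0.04 ± 0.40). mt-Ts2 had 33, 45 and 22 counts in JR5558, against 23, 18 and 37 in C57BL/6J (0.20 ± 0.62), and mt-Nd5 downstream had a log2 fold change of 0.03 ± 0.14. The adjusted p in edgeR were 0.976, 0.916 and 0.945 in this order, and for all 3 the groups overlapped. The errors of mt-Th and mt-Ts2 were wide. The count of mt-Tl2 over that of mt-Nd5 was 0.00190 ± 0.000494 in JR5558 and 0.000908 ± 0.000219 in C57BL/6J (SD, n = 3 each). The difference in response between mt-Tl2 and its neighbours was not tested.

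Further large changes at 8 weeks did not pass. mt-Tg had 26, 26 and 24 counts in JR5558, against 20, 12 and 14 in C57BL/6J, without overlap (0.59 ± 0.46, adjusted p = 0.571 in edgeR). mt-Atp6 had 680, 658 and 785 counts in JR5558, against 810, 1373 and 565 in C57BL/6J (-0.53 ± 0.27, adjusted p = 0.322). The second C57BL/6J library lay far above the other 5. Without it the log2 fold change of mt-Atp6 was -0.03. With no filter on low counts mt-Atp6 passed (-0.52, adjusted p = 0.000318). No protein-coding gene had an unadjusted p under 0.05 at this age, against 17.4% of all tested genes.

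**Figure D3:**
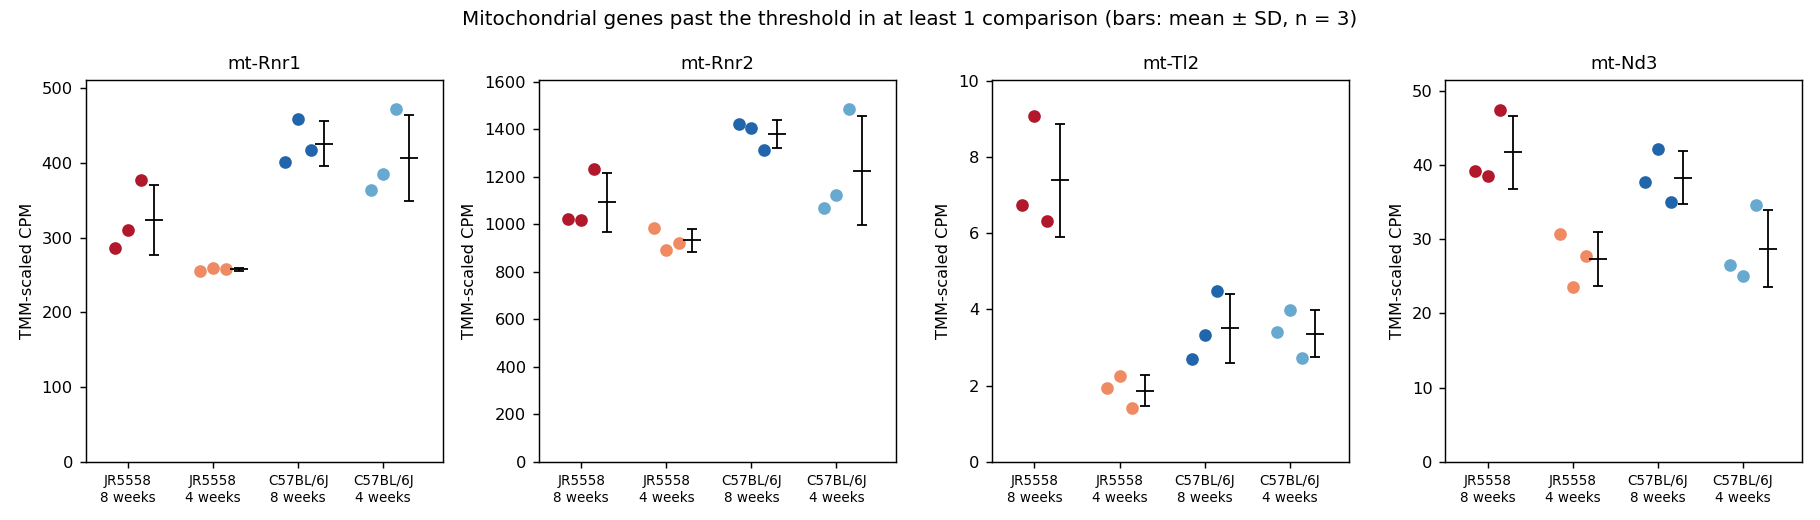
TMM-scaled CPM (vertical axes, from 0) of the 4 mitochondrial genes past the threshold in at least 1 comparison, with 1 point per library and bars for the mean ± SD (n = 3). JR5558 libraries lie below C57BL/6J libraries for both ribosomal RNAs at each age, and mt-Tl2 is at 6.33 to 9.08 CPM in JR5558 at 8 weeks and at 1.42 to 4.49 CPM elsewhere.

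From the younger to the older JR5558 retinas, mt-Tl2 and mt-Nd3 rose. Nearly all other tested mitochondrial genes had log2 fold changes above 0 that did not pass, and some with few counts were larger than that of mt-Nd3. The called genes were 2 of 27 tested, against 0.676% of all tested genes called higher and 1.51% called in either direction. mt-Tl2 had 139, 205 and 133 counts at 8 weeks, against 47, 43 and 29 at 4 weeks. The lowest value at 8 weeks was well above the highest at 4 weeks. The log2 fold change was 1.98 ± 0.26 (edgeR, adjusted p = 0.000332), and the call held without any 1 library, with a highest adjusted p of 0.00356. The JR5558 libraries of each age also enter the strain comparisons above, so these results for mt-Tl2 share libraries.

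mt-Nd3, a small complex I subunit, stood at 39.2, 38.6 and 47.4 CPM in JR5558 at 8 weeks, against 30.7, 23.6 and 27.8 CPM at 4 weeks. The ages did not overlap. The log2 fold change was 0.61 ± 0.13 (edgeR, adjusted p = 0.0244). The call was lost without JR5558 replicate 1, 2 or 3 of 8 weeks (adjusted p = 0.0523, 0.0562 and 0.199) or replicate 2 of 4 weeks (0.130), and also when the counts of Gm28438 were added to the gene (0.54, adjusted p = 0.0524). mt-Nd3 lies inside the stretch copied on chromosome 1.

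Of the 27 tested genes, 26 had a log2 fold change above 0 between the ages in JR5558, against 8883 of 18334 genes in all, and their median was 0.33, against -0.01. The 10 mitochondrial genes whose ages did not overlap were all higher at 8 weeks, against 12.0% of all tested genes whose libraries were all higher. Only mt-Nd4l was below 0 (-0.26 ± 0.31). It had 214, 175 and 178 counts at 8 weeks, against 467, 113 and 132 at 4 weeks, with replicate 1 of 4 weeks far above all other libraries. mt-Co2, the oxidase subunit that holds the CuA centre, was at 78.0, 72.0 and 102.0 CPM at 8 weeks, against 53.5, 63.0 and 60.8 CPM at 4 weeks (0.51 ± 0.13, adjusted p = 0.0505 in edgeR).

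The 2 low genes with the largest fitted changes did not pass. mt-Atp8 had 7, 13 and 9 counts at 8 weeks, against 0, 7 and 0 at 4 weeks (1.93 ± 0.94, adjusted p = 0.312 in edgeR). mt-Tr had 18, 21 and 19 counts at 8 weeks, against 18, 9 and 3 at 4 weeks (0.96 ± 0.53, adjusted p = 0.372). The values of mt-Ty (0.79), mt-Ts2 (0.72) and mt-Th (0.67) were also above that of mt-Nd3 and did not pass. For mt-Co1 the change was 0.07 ± 0.12 and for mt-Cytb 0.18 ± 0.11. Without replicate 3 of C57BL/6J at 4 weeks, which is not in this comparison, 8 mitochondrial genes were called higher at 8 weeks, against 5.24% of all genes in that fit. The 6 further genes were mt-Nd1, mt-Nd2, mt-Nd4, mt-Nd5, mt-Rnr1 and mt-Co2, and the fold changes moved little (mt-Nd1 0.25 in both fits).

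In C57BL/6J no mitochondrial gene passed the threshold between the ages in edgeR, against 0.431% of all tested genes, and DESeq2 also called 0. At an unadjusted p under 0.05 there were 6 of 27, against 14.4% of all tested genes. All 13 protein-coding genes had log2 fold changes above 0, as did 22 of the 27 tested, with a median of 0.17 against 0.00 over all genes. Of the 27 tested, 2 had ages that did not overlap, both higher at 8 weeks, against 1646 of 18334 tested genes all higher and 1836 all lower. Among the 13 protein-coding genes it was only mt-Nd3, at 37.7, 42.2 and 35.1 CPM at 8 weeks and 26.6, 25.0 and 34.7 CPM at 4 weeks. The log2 fold change of mt-Nd3 was 0.41 ± 0.13 (adjusted p = 0.164 in edgeR), and its gap between the ages was narrow. The transfer RNA gene mt-Tl1 stood at 12.2, 11.2 and 9.62 CPM at 8 weeks and 7.62, 6.58 and 8.22 CPM at 4 weeks. Its log2 fold change was 0.55 ± 0.16, with the lowest adjusted p of the 27 (0.136 in edgeR).

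The 3 largest changes in C57BL/6J were of genes with few or uneven counts. mt-Atp8 had 7, 16 and 10 counts at 8 weeks, against 6, 7 and 2 at 4 weeks (1.12 ± 0.84, adjusted p = 0.569 in edgeR). mt-Tw had 57, 20 and 39 counts at 8 weeks, against 44, 53 and 93 at 4 weeks (-0.71 ± 0.36, adjusted p = 0.369). mt-Atp6 had 810, 1373 and 565 counts at 8 weeks, against 595, 363 and 830 at 4 weeks (0.65 ± 0.27, adjusted p = 0.278), and passed with no filter on low counts (adjusted p = 9.7e-06). All 3 overlapped between the ages.

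This absence of calls also rested on replicate 3 of C57BL/6J at 4 weeks. The levels of mt-Nd6 show how it differs: 1364, 1456 and 1359 CPM at 8 weeks, against 918, 990.9 and 1920 CPM at 4 weeks. It was the highest of the 12 libraries for mt-Nd2, mt-Nd5, mt-Nd6, mt-Rnr1 and mt-Rnr2, but among the low ones for mt-Co2 (61.7 CPM, against 79.9 and 86.0 CPM in its group). Without it, 9 mitochondrial genes rose with age in C57BL/6J, against 0.462% of all genes in that fit. They were mt-Co1 (0.37), mt-Cytb (0.48), mt-Nd1 (0.44), mt-Nd2 (0.44), mt-Nd3 (0.57), mt-Nd4 (0.46), mt-Nd5 (0.36), mt-Nd6 (0.55) and mt-Co3 (0.90), with adjusted p from 0.00236 for mt-Cytb to 0.0478 for mt-Nd3 in edgeR. The summed level of 8 lens markers, all of which had counts, was 142.8 CPM in this library and 1.52 to 62.5 CPM in the other 11, and their part in the result was not tested.

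**Figure D4:**
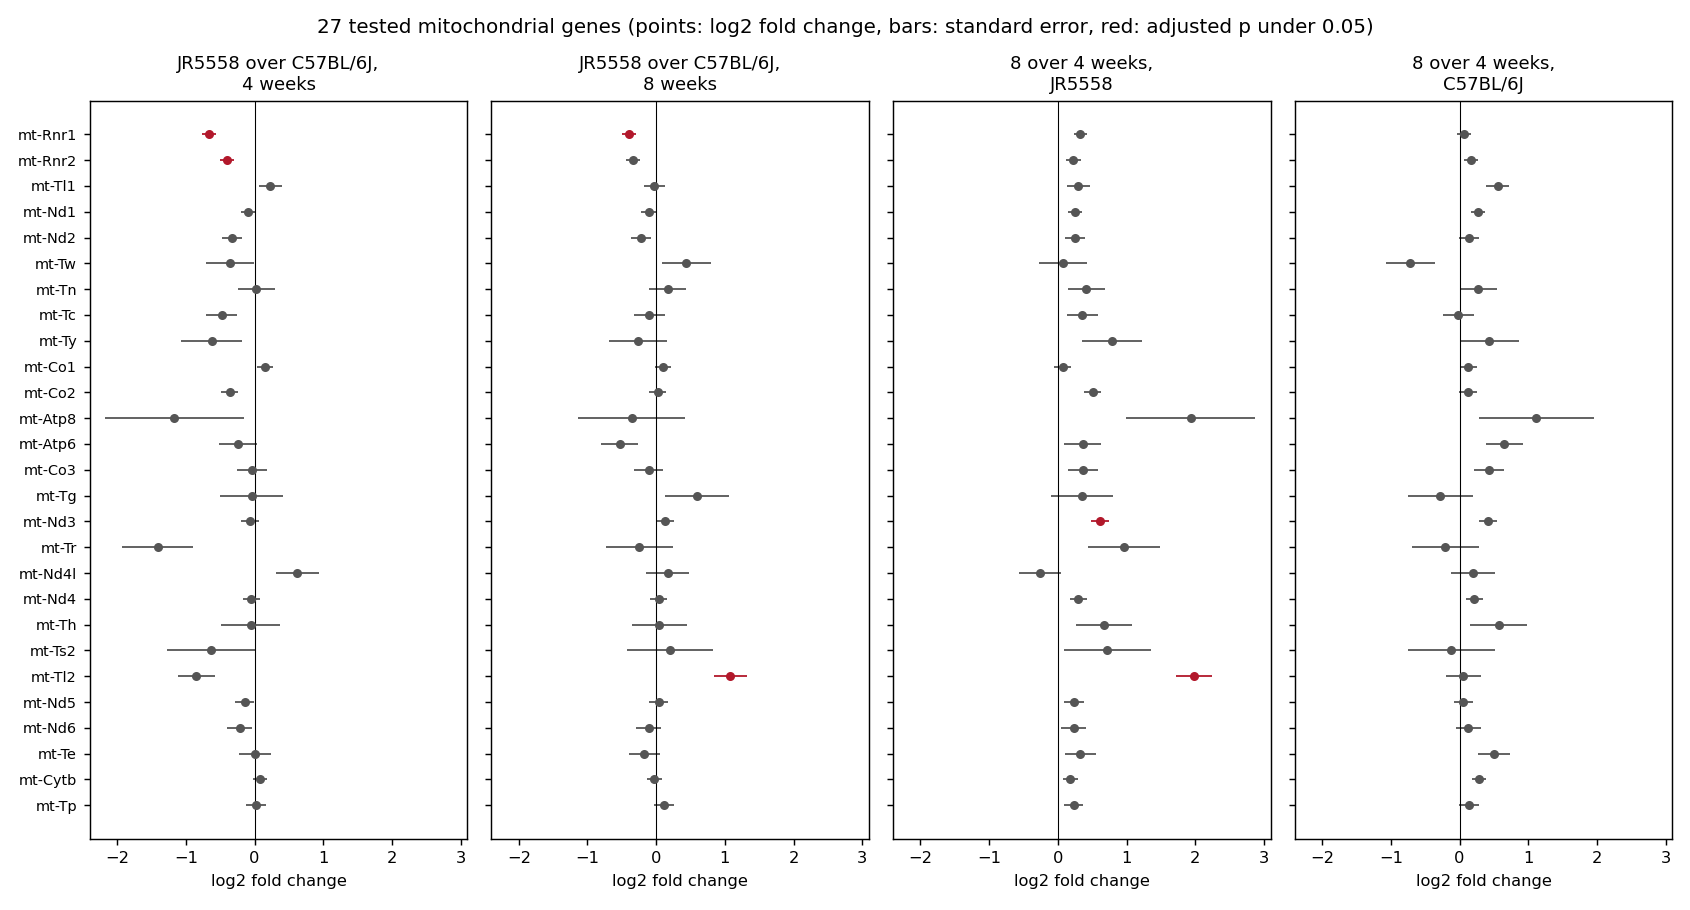
Log2 fold change (horizontal axes) and standard error of the 27 tested mitochondrial genes in genome order, for JR5558 over C57BL/6J at 4 and 8 weeks and for 8 over 4 weeks in each strain. Red marks an adjusted p under 0.05. In JR5558, 26 of 27 points lie right of 0 between the ages.

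Whether strain had another effect at 8 than at 4 weeks was tested directly for each gene. Sex cannot be told apart from this difference either. mt-Tl2 was the only mitochondrial gene past the threshold in edgeR, 1 of 27, against 0.0545% of all tested genes called higher and 0.0927% in either direction. Its strain effect was higher at 8 weeks by 1.93 ± 0.36 on the log2 scale (edgeR, adjusted p = 0.0464), with a change from 4 to 8 weeks of 1.98 in JR5558 and of 0.06 ± 0.25 in C57BL/6J. The call was lost without any 1 of 10 of the 12 libraries, with adjusted p up to 0.230, while the estimate stayed between 1.76 and 2.15. mt-Tr (1.17 ± 0.72, adjusted p = 0.782) and mt-Ts2 (0.84 ± 0.89, adjusted p = 0.886) did not pass. For mt-Rnr1 the difference was 0.26 ± 0.14 (adjusted p = 0.744).

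The test behind the authors' own comparisons is not stated. In the authors' deposited table mt-Tl2 had a log2 fold change of 1.99 between the ages in JR5558, with an adjusted p of 2.438e-09, and 1.09 between the strains at 8 weeks (0.000393). mt-Rnr1 had -0.66 at 4 weeks (3.717e-07) and -0.39 at 8 weeks (0.0342) in the authors' deposited table. For mt-Rnr2 the authors' deposited table gave -0.40 (0.0347) and -0.33 (9.914e-06), so there both ages lay under 0.05. For mt-Nd2 the authors' deposited table gave -0.21 (0.0101) at 8 weeks. Between the ages in JR5558, 9 mitochondrial genes lay under 0.05 in the authors' deposited table, all higher at 8 weeks: mt-Tl2, mt-Nd3, mt-Co2, mt-Nd4, mt-Rnr1, mt-Nd1, mt-Nd5, mt-Nd2 and mt-Rnr2. They were 27.3% of the 33 with an adjusted p there, against 3.75% of all genes with one. Between the strains at 4 weeks 2 mitochondrial genes lay under 0.05 in the authors' deposited table, against 2.73% of all genes, and 4 at 8 weeks, against 7.62%. Between the ages in C57BL/6J none did in the authors' deposited table, against 0.569%.

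A view that does not depend on the size of the whole mitochondrial share is each gene's percent of the mitochondrial counts. These percents add up to 100, so a higher one lowers others, and they were given no test. mt-Co1 took 34.0%, 35.3% and 34.7% in JR5558 at 8 weeks and 37.2%, 37.4% and 36.8% in JR5558 at 4 weeks. It took 31.9%, 32.2% and 32.0% in C57BL/6J at 8 weeks and 33.2%, 32.9% and 33.3% in C57BL/6J at 4 weeks. No groups overlapped in either comparison of strains or of ages, and for mt-Co1 replicate 3 of C57BL/6J at 4 weeks lay close to its group. It stood apart from its group for mt-Nd2 (8.58%, with 7.71% and 7.58% in replicates 1 and 2), for mt-Nd1 (11.6%, with 12.7% in both) and for mt-Rnr1 (1.05%, with 1.25% and 1.31%).

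mt-Rnr1 took 0.837% ± 0.0454 in JR5558 at 8 weeks and 0.755% ± 0.0482 in JR5558 at 4 weeks, against 1.09% ± 0.0358 in C57BL/6J at 8 weeks and 1.20% ± 0.133 in C57BL/6J at 4 weeks (SD, n = 3 each). mt-Rnr2 took 2.83% ± 0.0277 in JR5558 at 8 weeks and 2.73% ± 0.232 in JR5558 at 4 weeks, against 3.54% ± 0.177 in C57BL/6J at 8 weeks and 3.60% ± 0.253 in C57BL/6J at 4 weeks. mt-Nd2 took 6.78% ± 0.110 in JR5558 at 8 weeks and 6.44% ± 0.0865 in JR5558 at 4 weeks, against 7.80% ± 0.0723 in C57BL/6J at 8 weeks and 7.96% ± 0.540 in C57BL/6J at 4 weeks. For these 3 genes JR5558 was lower at both ages without overlap. A lack of overlap was not particular to them. Of the 15 protein-coding and ribosomal RNA genes, 5 were all lower and 2 all higher in JR5558 at 4 weeks. At 8 weeks 5 were all lower and 3 all higher.

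mt-Nd4 changed places: 7.02% ± 0.0454 in JR5558 at 8 weeks lay above 6.78% ± 0.161 in C57BL/6J at 8 weeks, whereas 6.44% ± 0.0710 in JR5558 at 4 weeks lay below 6.60% ± 0.0540 in C57BL/6J at 4 weeks, without overlap at either age. mt-Cytb took 21.5% ± 0.268 in JR5558 at 8 weeks and 21.4% ± 0.468 in JR5558 at 4 weeks, against 21.6% ± 0.0686 in C57BL/6J at 8 weeks and 20.2% ± 0.843 in C57BL/6J at 4 weeks. The C57BL/6J libraries of 4 weeks, at 19.2% to 20.7%, lay below all JR5558 libraries of their age and below all C57BL/6J libraries of 8 weeks. The count of mt-Rnr1 over that of mt-Rnr2 was 0.296 ± 0.0145 in JR5558 at 8 weeks and 0.277 ± 0.0160 in JR5558 at 4 weeks, against 0.309 ± 0.0239 in C57BL/6J at 8 weeks and 0.333 ± 0.0143 in C57BL/6J at 4 weeks.

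**Figure D5:**
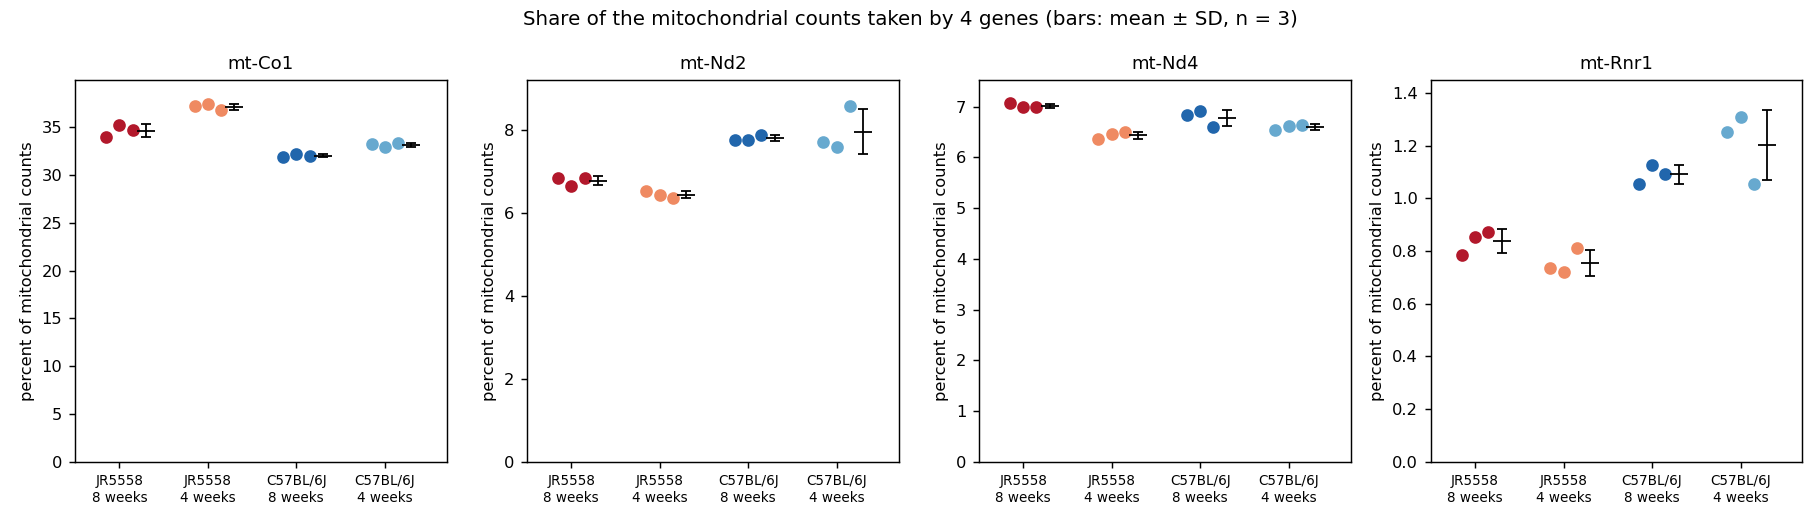
Percent of the mitochondrial counts (vertical axes, from 0) taken by mt-Co1, mt-Nd2, mt-Nd4 and mt-Rnr1, with 1 point per library and bars for the mean ± SD (n = 3). mt-Co1 lies at 34.0% to 37.4% in JR5558 and at 31.9% to 33.3% in C57BL/6J, while mt-Rnr1 and mt-Nd2 lie lower in JR5558 at each age.

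Nuclear genes that copy, transcribe, process and modify mitochondrial DNA and RNA were described from a list of 65, all of which were tested. At 4 weeks, 2 were higher and 1 lower in JR5558, which is 4.62% of the list, against 6.16% of all tested genes. The median log2 fold change was -0.05 over the list, against 0.00 over all tested genes. Cdk5rap1, which adds a methylthio group to mitochondrial transfer RNAs, was at 23.5, 23.6 and 31.2 CPM in JR5558, against 7.90, 9.08 and 8.60 CPM in C57BL/6J (1.61 ± 0.14, adjusted p = 2.215e-07 in edgeR). The strains lay far apart. Ppargc1b, a coactivator of mitochondrial biogenesis, was at 70.3, 72.1 and 74.1 CPM in JR5558, against 52.1, 55.0 and 44.7 CPM in C57BL/6J (0.51 ± 0.09, adjusted p = 0.00162). Mterf3, known in mice as a negative regulator of mitochondrial transcription, was at 23.9, 23.6 and 23.8 CPM in JR5558, against 28.3, 31.9 and 36.0 CPM in C57BL/6J (-0.43 ± 0.10, adjusted p = 0.0149). The call of Mterf3 was lost without replicate 3 of C57BL/6J (adjusted p = 0.0568) and in a fit of the 2 groups alone (0.0921).

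At 8 weeks 1 gene of the list was higher and 1 lower in JR5558, which is 3.08% of the list, against 5.18% of all tested genes. Cdk5rap1 was at 27.4, 29.2 and 35.0 CPM in JR5558, against 9.80, 10.6 and 9.24 CPM in C57BL/6J (1.63 ± 0.14, adjusted p = 1.807e-07 in edgeR). Polg2, the accessory subunit of the mitochondrial DNA polymerase, was at 32.5, 35.0 and 38.0 CPM in JR5558, against 53.6, 56.3 and 54.3 CPM in C57BL/6J (-0.64 ± 0.08, adjusted p = 4.818e-05). Neither gene overlapped between the strains. A fit of the 2 groups alone called 5 genes of the list at this age, 3 higher and 2 lower, against 12.5% of all genes in that fit.

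Between the ages in JR5558, 2 genes of the list fell, which is 3.08% of it, against 1.51% of all tested genes called in either direction. Ppargc1b was at 46.6, 52.4 and 49.0 CPM at 8 weeks, against 70.3, 72.1 and 74.1 CPM at 4 weeks (-0.55 ± 0.09, adjusted p = 0.00458 in edgeR). Polg2 was at 32.5, 35.0 and 38.0 CPM at 8 weeks, against 45.9, 45.7 and 47.0 CPM at 4 weeks (-0.39 ± 0.08, adjusted p = 0.0205), a call lost without JR5558 replicate 1 or 2 of either age (adjusted p up to 0.134). Both genes were lower at 8 weeks in every library, while the median over the list was 0.04, against -0.01 over all tested genes. Without replicate 3 of C57BL/6J at 4 weeks 6 genes of the list were called, against 5.24% of all genes in that fit. In C57BL/6J edgeR called 0 genes of the list between the ages, with 6 at an unadjusted p under 0.05, against 14.4% of all tested genes, and DESeq2 called 0. For another strain effect at 8 than at 4 weeks edgeR called 0, with 5 at an unadjusted p under 0.05, against 7.19% of all tested genes, and DESeq2 called 1.

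The core factors showed no call in edgeR. Polrmt, the mitochondrial RNA polymerase, averaged 48.6 ± 1.40 CPM in JR5558 at 8 weeks, 44.2 ± 7.82 in JR5558 at 4 weeks, 49.2 ± 9.41 in C57BL/6J at 8 weeks and 50.4 ± 2.94 in C57BL/6J at 4 weeks (SD, n = 3 each). Tfam, which packs the genome and helps start transcription, averaged 27.9 ± 2.85 CPM in JR5558 at 8 weeks, 28.0 ± 2.31 in JR5558 at 4 weeks, 28.5 ± 3.19 in C57BL/6J at 8 weeks and 27.4 ± 0.925 in C57BL/6J at 4 weeks. Lrpprc, which keeps mitochondrial messenger RNAs stable together with Slirp, averaged 92.7 ± 3.70 CPM in JR5558 at 8 weeks and 92.4 ± 2.62 CPM in JR5558 at 4 weeks, against 101.3 ± 1.59 CPM in C57BL/6J at 8 weeks and 103.6 ± 10.6 CPM in C57BL/6J at 4 weeks. Lrpprc was lower in all JR5558 libraries at each age, with log2 fold changes of -0.17 ± 0.08 at 4 weeks (adjusted p = 0.263) and -0.13 ± 0.08 at 8 weeks (0.450). Slirp was too low to follow, at 0.0824 to 2.81 CPM.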

How the data were processed

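Raw counts per gene and library were taken as the authors deposited them. Per the submitters' processing notes, fastp, HISAT2 2.0.5 and featureCounts 1.5.0-p3 were used with mm10; strand and multi-mapping settings are not given in the sources used here. FPKM values made by the authors stand in the same table and were only read. The log2 fold changes and adjusted p-values from the authors' deposited table are quoted where named. The table's positions of nuclear genes differ from GENCODE M21, so those printed for copies are GENCODE's.

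With R 4.3.3 and edgeR 4.0.16, the filterByExpr filter was applied by group, with a minimum count of 10 and a minimum total of 15. The genes left were scaled by TMM and fitted with 1 mean per group over all 12 libraries. The 5 contrasts were tested with the quasi-likelihood test (2-sided) and adjusted by the Benjamini-Hochberg method over 18334 genes at a threshold of 0.05. The standard error is the absolute log2 fold change over the square root of F. CPM are counts per 1e6 of the TMM-scaled library size. Library totals of 18029611 to 23739886 counts set the precision, and genes with few counts have wide errors.

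Members and lists were chosen with earlier results of these data known. Named in full are members past the threshold and, where a contrast had fewer than 3, also the 3 with the largest fold change. Of the 65 nuclear genes, Polrmt, Tfam, Lrpprc and Slirp were always named, with up to 5 called genes per contrast. Any gene named beyond this was picked with its values in view. Alternatives were RLE scaling, 2 other filters, DESeq2 1.42.0, library sizes from nuclear genes, only the groups compared, a replicate block, leaving out each library and, added after seeing the data, adding the counts of nuclear copies. The fit was tested on simulated data.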

Additional observations from a re-analysis of the deposited data

Results flagged for a closer look

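The effect of strain on mt-Tl2 differed between the ages by a test of the difference itself: it was higher at 8 weeks by 1.93 on the log2 scale. The JR5558 mice of 4 weeks differ in sex from the other groups, so sex cannot be told apart from this difference. For Polg2 the libraries of the strains lay in opposite directions with age. All JR5558 libraries of 8 weeks lay below those of 4 weeks (log2 fold change -0.39, adjusted p = 0.0205 in edgeR), and all C57BL/6J libraries of 8 weeks lay above those of 4 weeks (0.22, adjusted p = 0.234, which did not pass). The difference between the strains had an adjusted p of 0.0548 in edgeR, which did not pass either.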

How the results depend on the processing

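Counts of called mitochondrial genes moved in these ways. With no filter on low counts they were 6 and 4 for the strains at 4 and 8 weeks (4.59% and 4.07% of all genes) and 11 and 5 for the ages in JR5558 and C57BL/6J (2.69% and 1.40% of all genes), and the nuclear list had 4 calls between the ages in JR5558 and 1 for the interaction (0.303% of all genes). With only the groups compared they were 1 and 4 for the strains (3.21% and 12.5% of all genes) and 4 for the ages in JR5558 (3.11%), and the nuclear list had 5 at 8 weeks. With at least 1 CPM in 3 libraries the interaction had 0. DESeq2 called 3 mitochondrial genes for the strains at each age (7.69% and 6.73% of all genes) and 3 for the ages in JR5558 (3.60%), and 1 gene of the nuclear list for the interaction (0.327%). Adding the nuclear copies gave 1 for the ages in C57BL/6J (0.437%). The cause of these moves in the numbers of calls was not tested. Per 100 counts on nuclear protein-coding genes, the share in C57BL/6J at 8 weeks was 4.07, against 3.83% of all counts. That denominator leaves out the mitochondrial counts, so by definition the value is larger in every group.

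With the replicate number as a block the interaction had 0 calls (mt-Tl2 1.90, adjusted p = 0.0840), and the other counts were the same. Same-numbered libraries had correlations of -0.114 to 0.087 between their deviations, against -0.083 to 0.114 for other numbers. Over all tested genes the same numbers thus stood no closer than others. A link between same-numbered libraries that is limited to some genes would not be seen this way.

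Leaving out each library in turn gave 1 to 5 calls for the strains at 4 weeks (4.33% to 6.16% of all genes) and 0 to 3 at 8 weeks (2.85% to 7.28%). It gave 1 to 8 for the ages in JR5558 (0.334% to 5.24%) and 0 to 9 in C57BL/6J (0.0848% to 0.67%). For the interaction it gave 0 to 1 (0.0318% to 0.202%). For the nuclear list it gave 1 to 6 for the ages in JR5558 and 0 to 1 for the interaction, beside the same shares of all genes. The highest counts came without replicate 3 of C57BL/6J at 4 weeks.

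Signs changed for uncalled nuclear genes near 0. For Tfam between the ages in JR5558 the value was 0.0127 with no filter, 0.0007 with library sizes from nuclear genes and 0.0008 with only the groups compared. Leaving out libraries gave Tfam -0.0337 to 0.0832 and -0.1219 to 0.0524 for the strains at 4 and 8 weeks, -0.0579 to 0.0823 and -0.0041 to 0.1467 for the ages in JR5558 and C57BL/6J, and -0.1516 to 0.0251 for the interaction. It gave Polrmt -0.1098 to 0.1498 for the strains at 8 weeks and -0.2032 to 0.058 for the ages in C57BL/6J. It gave Lrpprc -0.02 to 0.0286 and -0.0864 to 0.0541 for the ages in JR5558 and C57BL/6J and -0.0486 to 0.0974 for the interaction, and Slirp -0.31 to 0.50 for the ages in C57BL/6J. Under the other alternatives 342 values of single genes kept their sign and their side of the threshold, 5 gained a call, 5 lost one and 3 changed sign.

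Shared reads with the chromosome 1 copy limit mt-Co2, mt-Atp6, mt-Atp8, mt-Co3, mt-Nd3 and mt-Nd4l. They also limit mt-Ts1, mt-Td, mt-Tk, mt-Tg and mt-Tr and the copied parts of mt-Co1 and mt-Nd4. Poly-T capture limits what ribosomal and transfer RNA levels stand for. Sex cannot be told apart from strain at 4 weeks, from age in JR5558 or from the interaction.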
